A study of Mus musculus with 14 samples.

Results

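The immunoglobulin variable gene segments were examined in bulk RNA-seq of 14 CT26 tumors. A segment was a member when its mouse symbol began with Ighv, Igkv or Iglv and its expected count summed over all 14 tumors was 3 or more. The members were thus selected on their counts, and their being detected is not a result and was given no test. The rule found 118 members among 348 variable segments and among 53801 genes in the tables, with 44 of 185 Ighv, 71 of 160 Igkv and 3 of 3 Iglv segments. The annotation listed 2 members, Ighv1-14 and Igkv2-116, as pseudogenes, and 207 of the 348 segments were at 0 in every tumor. Just inside the threshold lay segments such as Ighv9-4, Ighv1-84 and Igkv4-57 with a sum of 3, and just outside lay Ighv1-62-2 with a sum of 2.36.

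Barcoded cells of CT26, a Balb/c colon carcinoma line, had been transplanted into both flanks of 6- to 8-week-old female Balb/c mice. The mice received either control IgG or anti-PD-1, an antibody that blocks an inhibitory receptor of T cells. The control IgG group had 5 tumors of 4 mice. Among the anti-PD-1 tumors, 5 responders came from 4 mice, and 4 non-responders came from 3 mice. Responders and non-responders had been separated by their final tumor size relative to the control IgG tumors, so treated tumors of intermediate size belonged to neither group and response cannot be told apart from size. Tumors are named by the number of the mouse and the flank. From the shared number, mice 14, 30 and 33 were read as having given both flank tumors, and tests treated tumors as replicates.

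B cells build each antibody gene by joining a variable segment to shorter segments in front of a constant region. A heavy chain takes its variable segment from the Ighv cluster on chromosome 12, and a light chain takes it from the Igkv cluster on chromosome 6 or, less often in mice, from the Iglv cluster on chromosome 16. A clone of B cells carries its own heavy and light segment, and plasma cells, the cells that secrete antibody, hold very large amounts of both transcripts. In bulk tumor RNA a higher level of a segment can come from more such cells or from more RNA per cell, and these cannot be told apart.

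The V exons of Igkv6-23 and Igkv6-32 are shown first because each was the leading segment of a responder tumor and both belong to 1 family. The reference V exons of 298 bases, from the GENCODE M21 transcripts on build GRCm38 (mm10), are given 5′ to 3′. Capitals in Igkv6-32 mark the 52 bases that differ from Igkv6-23 at the same position, which left an identity of 82.6%.
Igkv6-23, chr6:70260409-70260706, minus strand: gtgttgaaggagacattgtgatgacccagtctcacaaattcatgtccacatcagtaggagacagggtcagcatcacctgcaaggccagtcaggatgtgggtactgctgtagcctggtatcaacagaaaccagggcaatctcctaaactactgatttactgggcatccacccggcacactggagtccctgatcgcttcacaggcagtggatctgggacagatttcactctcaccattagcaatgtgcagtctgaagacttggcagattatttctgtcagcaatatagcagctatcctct
Igkv6-32, chr6:70074024-70074321, minus strand: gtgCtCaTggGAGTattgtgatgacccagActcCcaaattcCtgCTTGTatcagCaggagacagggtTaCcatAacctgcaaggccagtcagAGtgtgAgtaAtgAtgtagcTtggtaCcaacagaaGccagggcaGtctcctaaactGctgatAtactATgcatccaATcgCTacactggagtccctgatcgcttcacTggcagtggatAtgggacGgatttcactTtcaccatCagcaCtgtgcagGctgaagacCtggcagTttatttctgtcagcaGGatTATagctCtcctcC

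The last 60 bases of the V exon are shown for 6 segments that the results turn on, because this end is where a rearranged gene is joined. Capitals run from the codon of the conserved cysteine to the end of the germline exon, a stretch of 11 bases in Ighv2-9 and of 26 to 28 bases in the light chain segments. In a rearranged transcript the join lies at or near the last capital.
Igkv6-23, chr6:70260409-70260468, minus strand: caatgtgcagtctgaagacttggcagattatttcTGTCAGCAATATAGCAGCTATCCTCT
Igkv12-44, chr6:69814631-69814690, minus strand: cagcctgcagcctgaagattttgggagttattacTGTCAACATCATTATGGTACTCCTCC
Igkv4-68, chr6:69304834-69304893, minus strand: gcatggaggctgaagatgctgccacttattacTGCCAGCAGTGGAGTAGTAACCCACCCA
Igkv1-110, chr6:68271208-68271267, plus strand: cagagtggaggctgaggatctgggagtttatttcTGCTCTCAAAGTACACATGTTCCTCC
Iglv1, chr16:19085017-19085076, minus strand: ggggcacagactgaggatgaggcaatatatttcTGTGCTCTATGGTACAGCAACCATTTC
Ighv2-9, chr12:113879096-113879155, minus strand: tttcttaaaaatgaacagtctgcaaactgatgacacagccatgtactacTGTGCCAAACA

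The annotated transcripts of the members were 286 to 501 bases long with a median of 358, and the tables gave these short transcripts a median effective length of 77.7 to 94.4 bases in the tumors. Fragments that cross the join lie partly outside them, so the counts cover only part of each rearranged transcript. The reference is of the C57BL/6 strain while the mice were Balb/c, and the part of strain differences in the counts was not tested. Of the 118 members, 105 had no 150-base stretch that another annotated immunoglobulin variable gene shared. Transcripts of other genes were not compared. Of the 685 member counts above 0, 98.7% lay within 0.005 of a whole number.

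Variable segments made up a small part of every library and were highest in all 5 responders. The libraries held 33237744 to 48481461 expected counts, and the members together took 5253.6 counts, of which 84.5% were in responders. Among the responders the members had 27.1 CPM (expected counts scaled to a library total of 1000000) in 24L, 41.9 in 26R, 27.1 in 30L, 9.04 in 30R and 10.4 in 35L. The control IgG tumors had 3.66 CPM in 14L, 3.07 in 14R, 0.397 in 16R, 4.45 in 17R and 0.359 in 20R. The non-responders had 3.11 CPM in 29L, 1.16 in 32R, 1.97 in 33L and 2.06 in 33R. The lowest responder thus lay above the highest of the other 9 tumors, while controls and non-responders overlapped.

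The mean over responders was 23.1 ± 13.6 CPM (SD, n = 5), against 2.08 ± 0.798 CPM in non-responders (n = 4) and 2.39 ± 1.9 CPM in controls (n = 5). The ratio of the mean CPM was 11.1 against non-responders and 9.67 against controls. These sums over chosen members are a description and were given no p-value. Both control tumors with the lowest sums, 16R and 20R, rested on 15 and 16 counts. Markers of other cells moved in the same samples: the 12 T cell markers had a summed level of 74.1 to 135 CPM in responders, 34 to 72.1 in controls, and 40.8 to 49.3 among non-responders, none being at 0 in any group. The 12 B cell markers summed to 19.2 to 23.8 CPM in responders, 10 to 16.6 in controls and 10.7 to 14.2 in non-responders, also with none at 0 over a group. Their part in the level of the variable segments was not tested.

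**Figure D1:**
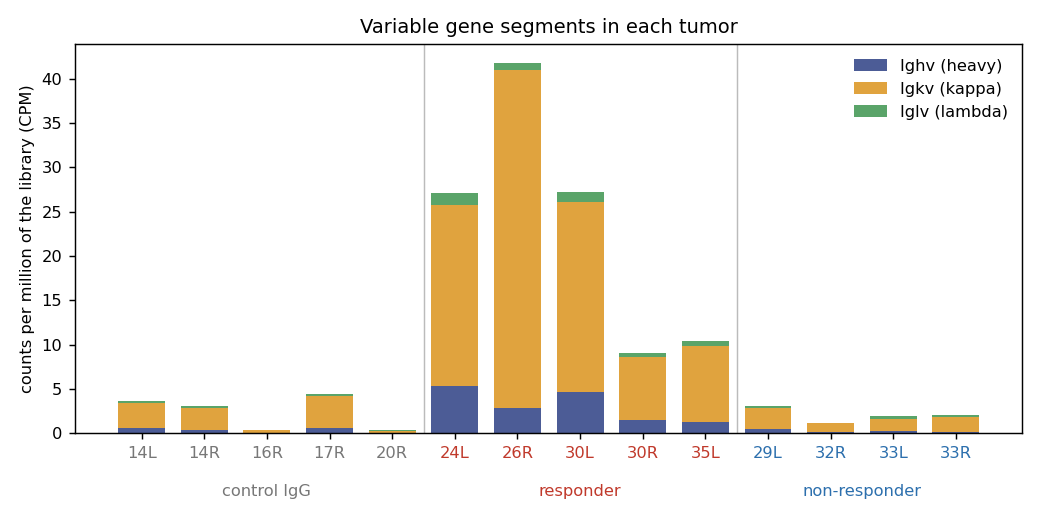
Bars give the CPM of all variable segments in each of the 14 tumors, split into heavy (Ighv), kappa (Igkv) and lambda (Iglv) segments, with tumors ordered by group. The 5 responders stand between 9.04 and 41.9 CPM, the other 9 tumors at 4.45 CPM or less, and kappa is the largest part of every bar.

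All 3 clusters were highest in responders. Heavy chain segments had 5.32 CPM in 24L, 2.89 in 26R, 4.7 in 30L, 1.55 in 30R and 1.3 in 35L, and at most 0.655 in any other tumor. Kappa segments had 20.4, 38.1, 21.4, 7.09 and 8.59 CPM in the same order of responders and at most 3.54 elsewhere. Lambda segments had 1.36, 0.842, 1.08, 0.402 and 0.495 CPM in them and at most 0.343 elsewhere, the narrowest gap of the 3 clusters. The ratio of the mean CPM of responders to that of non-responders was 11.3 for Ighv, 11.9 for Igkv and 4.38 for Iglv.

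The constant gene of the kappa chain, Igkc, gave a ratio of 10.2 by the same measure, close to that of Igkv. Ighg1, the constant gene of an IgG heavy chain, gave 20, and Jchain, which links secreted IgA and IgM, gave 6.51. Ighm, the constant gene of IgM that unswitched B cells use, gave 1.73. It stood at 24.7 to 43.4 CPM in responders, 17.7 to 23.7 in controls and 16.4 to 21.9 in non-responders. Control 16R had 713 Ighm counts beside 22 Igkc counts and 2 heavy variable counts. The source of the Ighm counts was not tested. Kappa variable counts per 100 Igkc counts were 45.1 to 86.1 in responders, 30.8 to 87.2 in controls and 38.8 to 107 in non-responders, so the balance of kappa variable to constant counts overlapped between the groups. Per length, the TPM summed over Igkv was 1.14 to 2.21 times the TPM of Igkc in responders, 0.727 to 2.12 times in controls and 1.05 to 2.93 times in non-responders.

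In the fit over all genes, few segments had enough counts for a test. The filter on low counts kept 16287 genes and 6 of the 118 members, namely Igkv1-88, Igkv6-32, Igkv1-110, Igkv10-96, Iglv1 and Ighv2-9. A member could pass it through its level in responders alone, so the counts among these 6 support nothing about the other 112. Of the 6, 4 were called higher in responders than in non-responders, where 5.08% of all genes tested were, and none was called lower. Against controls 4 were called higher, where 7.88% of all genes were. The median log2 fold change of the 6 was 3.39 against non-responders and 2.71 against controls, beside 0.01 and -0.01 over all genes tested. The counts changed when single tumors were left out, in part because fewer members then passed the filter: without 24L, 3 members were tested and 0 called in either comparison, and without 30L, 3 were tested, with 1 called against non-responders and 0 against controls. The number against non-responders was 2 without 26R, 1 without 30R, 35L or non-responder 32R and 3 to 5 without any other tumor. The number against controls was 1 without 35L, 2 without 26R or control 20R and 7 without any 1 of the non-responders, and otherwise 3 or 4. Without a responder 3 to 5 members passed the filter, and without a non-responder 11 or 12 did. Between non-responders and controls edgeR called 0 members and 0 genes (0% of those tested), while 478 genes were higher and 280 lower at an unadjusted p under 0.05, none of them a member, and DESeq2 called 16 genes and no member.

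Igkv6-32, a kappa segment at chr6:70074024-70074603, had 191 counts in 24L, 4 in 26R, 37 in 30L, 28 in 30R and 23 in 35L. The controls had 6 in 14L, 6 in 14R, 0 in 16R, 5 in 17R and 0 in 20R, and the non-responders held 1 count in 33L and 0 elsewhere. Every responder was above every non-responder in CPM, but 26R lay among the controls. The fitted log2 fold change was 7.08 (SE 1.44, adjusted p = 0.0129, edgeR quasi-likelihood test) against non-responders and 3.94 (SE 0.94, adjusted p = 0.0144) against controls. It did not pass the filter without 24L, 30L, 30R or 35L, and it was called in both comparisons in each of the 10 fits with another tumor left out. With a single count over the non-responders, the ratio of pooled CPM was 214 with an interval of 38.1 to 8491 for counting error alone.

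Ighv2-9, the heavy chain segment with the largest sum, lies at chr12:113879096-113879541. It had 11 counts in 24L, 22 in 26R, 43 in 30L, 9 in 30R and 11 in 35L, against 6, 2, 0, 3 and 0 in the controls and 0, 0, 1 and 1 in the non-responders. It was the only heavy chain member among the 6 tested, and its responders did not overlap with the non-responders in CPM. Its log2 fold change was 4.87 (SE 1.06, adjusted p = 0.0153, edgeR) against non-responders and 3.07 (SE 0.78, adjusted p = 0.0189) against controls. It did not pass the filter without 24L, 26R, 30L or 35L, and in the 10 other fits with a tumor left out its first call was lost without non-responder 32R alone (adjusted p = 0.0505). The pooled ratio against the 2 counts of the non-responders was 36.3 (9.79 to 304, counting error alone).

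Igkv1-110, at chr6:68270485-68271267, was the only member with at least 1 count in all 14 tumors. It had 61 counts in 24L, 16 in 26R, 38 in 30L, 45.01 in 30R and 21 in 35L. The controls had 16, 19, 6, 21 and 1, and the non-responders 6 in 29L, 2 in 32R, 3 in 33L and 8 in 33R. Responders were higher than non-responders without overlap in CPM, by a log2 fold change of 2.68 (SE 0.67, adjusted p = 0.0251, edgeR), but overlapped with controls, where the difference of 1.45 did not pass the test (adjusted p = 0.101). The call was lost without 24L (adjusted p = 0.0662), without 30R (0.0512) and without 32R (0.0729), at a log2 fold change of 2.42, 2.66 and 2.38, and with 1 library per mouse (3.13, adjusted p = 0.0559).

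Igkv1-88, at chr6:68862265-68863031, had 37, 15, 14, 11 and 16 counts in the responders 24L, 26R, 30L, 30R and 35L. It was at 0 in 3 of 4 non-responders, with 5 counts in 29L, and at 8, 2, 0, 0 and 0 in the controls. Its log2 fold change was 3.64 (SE 1.06, adjusted p = 0.0433, edgeR) against non-responders and 3.07 (SE 0.90, adjusted p = 0.0371) against controls. The first call was lost without 30R, 32R, 33L or 33R (adjusted p = 0.0604 to 0.111) and the second without 14R, 16R, 17R or 20R (0.0657 to 0.0935), and the fitted change against non-responders was 7.18 without 29L, the only one of them with counts. With 1 library per mouse the change against non-responders was 3.50 (adjusted p = 0.105). It was not tested without 24L, 26R, 30L or 35L.

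Iglv1, at chr16:19085017-19085500, carried 87.3% of all lambda counts. It had 48, 27, 38, 17 and 19 counts in the responders, 9, 11, 0, 8 and 1 in the controls and 5, 1, 8 and 7 in the non-responders. It was higher in responders than in controls by 2.34 (SE 0.66, adjusted p = 0.0307, edgeR), and the difference of 2.30 from non-responders gave an adjusted p of 0.0566. The call against controls was lost without 24L, 30L, 17R or 20R, at an adjusted p of 0.0529 to 0.0807. The other lambda segments were sparse, with 21 counts for Iglv2 and 8 for Iglv3 over all tumors.

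Igkv10-96 passed neither test, with a log2 fold change of 3.14 against non-responders (adjusted p = 0.0687, edgeR) and 1.30 against controls (adjusted p = 0.329). Its counts were 60, 11.1, 41, 17 and 23 in the responders, 6, 2, 2 and 2 in the non-responders and 3, 11, 0, 46 and 1 in the controls. The 46 counts were those of control 17R, more than in all responders but 24L.

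**Figure D2:**
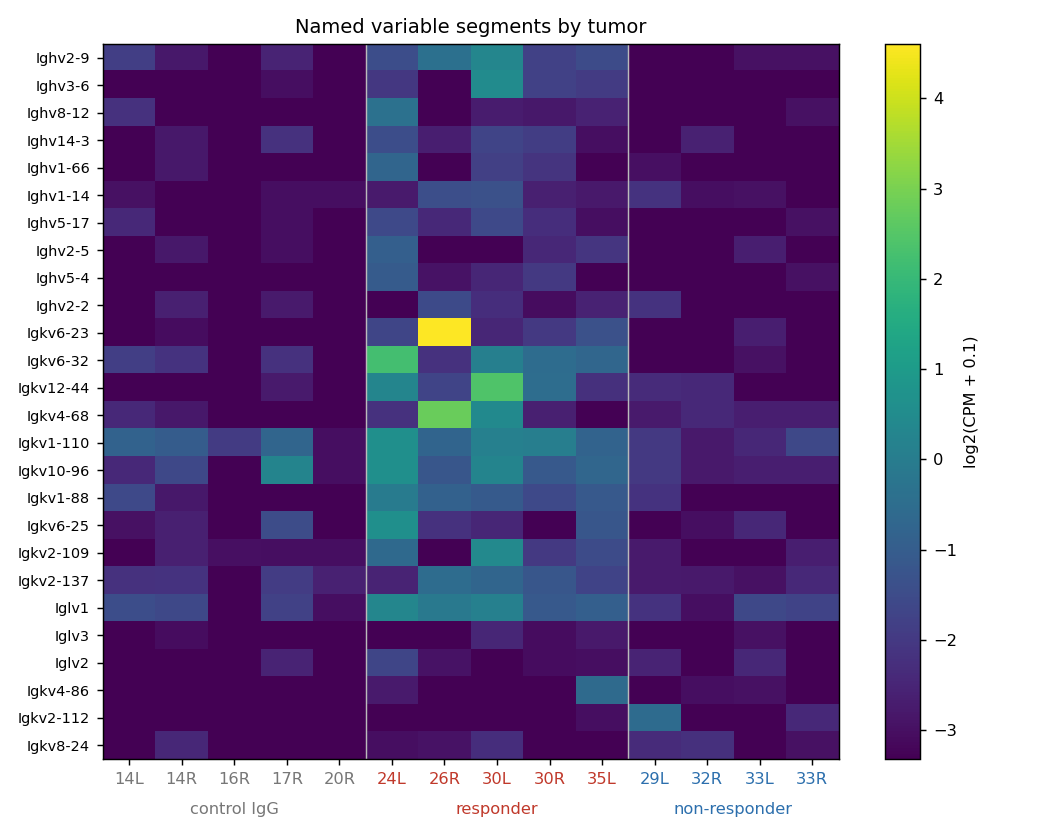
Colours give log2(CPM + 0.1) of 26 named segments (rows, by cluster) in the 14 tumors (columns, by group). The brightest cell is Igkv6-23 in responder 26R with 804 counts, and Igkv1-110 is the only row with counts in every tumor.

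When every gene with 3 or more counts over all tumors entered the fit, all 118 members were tested among 24231 genes. Then 8 members were called higher in responders than in non-responders, 6.78% of the members beside 2.94% of all genes, and 22 were called higher than in controls, 18.6% beside 4.8% of all genes. None was called lower in either comparison. The fitted change was positive for 111 of the 118 members against non-responders and for 114 against controls, with medians of 2.57 and 2.55 beside 0.04 and 0.01 over all genes. The rule on summed counts favours members that are high in at least some tumors, so these shares are a description. The 8 were Igkv6-32, Ighv3-6, Igkv1-110, Igkv6-23, Igkv12-44 and Ighv2-9 and, named after their values were seen, Igkv5-43 and Igkv6-17.

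Igkv5-43 was the most even of these. It had 9 counts in 24L, 7 in 26R, 4 in 30L, 8 in 30R and 8 in 35L, was at 0 in all 5 controls and had 2, 1, 0 and 1 counts in the non-responders. By CPM alone, 20 of the 118 members (16.9%) were higher in every responder than in every non-responder, beside 7.36% of all genes with 3 or more counts. Against controls 16 (13.6%) were, beside 7.18% of all genes. The 20 held 18 light chain segments, Iglv1 among them, and 2 heavy chain segments, Ighv2-9 and Ighv1-4.

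More segments were seen in responders, in step with their counts. At 1 count or more, 88 of the 118 members were seen in 24L, 66 in 26R, 82 in 30L, 73 in 30R and 83 in 35L. The controls showed 39 in 14L, 53 in 14R, 6 in 16R, 46 in 17R and 10 in 20R, and the non-responders 40 in 29L, 27 in 32R, 37 in 33L and 34 in 33R. The means were 78.4 ± 8.79, 30.8 ± 21.4 and 34.5 ± 5.57 (SD), and the lowest responder was above the highest of the other tumors. At a limit of 3 counts the responders still showed 34 to 61 segments, the controls 1 to 18 and the non-responders 6 to 14.

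At equal depth the groups overlapped. Each tumor with 50 or more variable segment counts was thinned to 50, which left out controls 16R and 20R. The number then expected was 26.6 in 24L, 12.4 in 26R, 25.6 in 30L, 29.7 in 30R and 31 in 35L. It was 25.8, 29.8 and 23.5 in controls 14L, 14R and 17R, and 26.5, 26.5, 30.7 and 28.4 in the non-responders. The means were 25.1 ± 7.41 in responders (n = 5), 26.4 ± 3.19 in controls (n = 3) and 28 ± 2 in non-responders (n = 4), and the ranges overlapped, with the lowest value, in 26R, and the highest, in 35L, both among the responders. Thinned to 15 counts, the smallest total, the responders ranged from 5.56 to 12.7 segments, the controls from 6 to 12.2 and the non-responders from 11.5 to 12.6.

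**Figure D3:**
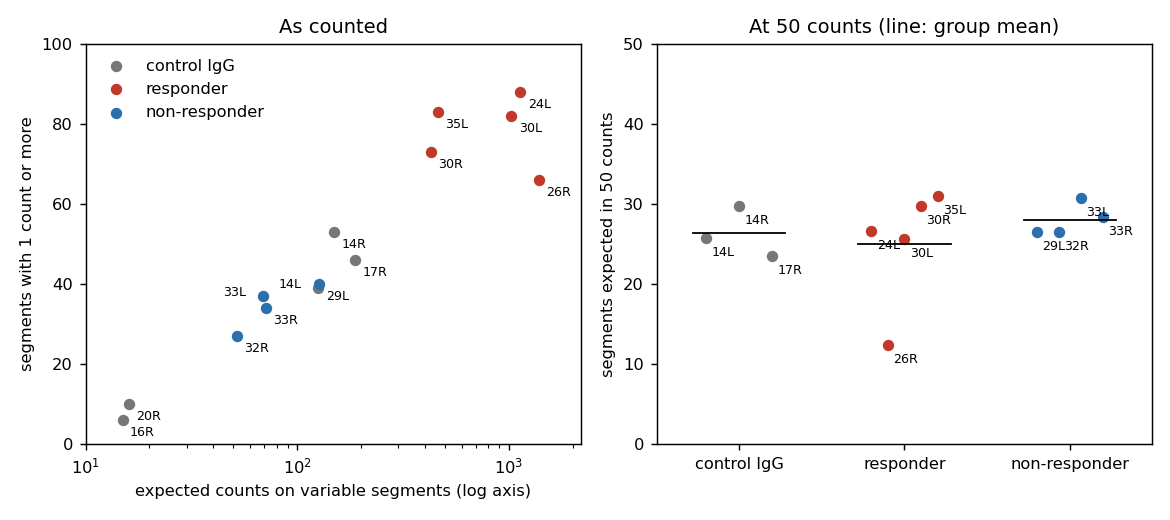
The left panel plots the number of segments with 1 or more counts against the expected counts on variable segments (log axis), a point for each of 14 tumors. The right panel gives the number expected in 50 counts for the 12 tumors that reached them, with lines at the group means, where responder 26R at 12.4 is the lowest and the other 11 tumors lie between 23.5 and 31.

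Of the 118 members, 117 were seen in at least 1 responder, 83 in at least 1 control and 82 in at least 1 non-responder. In all, 37 were seen in every responder and 13 in responders alone. Responders held 84.5% of the counts, and members were chosen on summed counts. These numbers were not set to equal depth and are a description. Only Ighv15-2 was seen in no responder, with 4 counts in all. A median member was seen in 6 of the 14 tumors. The 10 members with the largest sums took 52.2% of all variable segment counts.

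Dominance by a single segment differed more within the responders than between the groups. The leading segment took 16.8% of the variable segment counts in 24L (Igkv6-32), 57.8% in 26R (Igkv6-23), 19.5% in 30L (Igkv12-44), 10.5% in 30R (Igkv1-110) and 5.41% in 35L, where Igkv4-86 and Igkv3-1 tied at 25 counts. Its 95% exact binomial interval, which covers counting error only, was 55.2 to 60.4% in 26R and 3.53 to 7.88% in 35L. In the controls it took 12.7% in 14L, 12.8% in 14R and 40% in 16R, each time Igkv1-110, 24.5% in 17R (Igkv10-96) and 18.8% in 20R. In the non-responders it took 18.9% in 29L (Igkv2-112), 9.62% in 32R (Igkv8-24), 11.6% in 33L (Iglv1) and 11.3% in 33R (Igkv1-110).

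The values of 16R and 20R rested on 6 and 3 counts of the leading segment, and their intervals were 16.3 to 67.7% and 4.05 to 45.6%. The mean share was 22 ± 20.8% (SD) in responders, 21.8 ± 11.3% in controls and 12.9 ± 4.12% in non-responders, and the ranges overlapped. The effective number of segments was the inverse of the probability that a pair of counts drawn without replacement falls on the same segment. It was 20 in 24L, 2.76 in 26R, 17.2 in 30L, 31.1 in 30R and 40.2 in 35L. Responders thus held both the lowest and the highest value of the 14 tumors. The controls had 24.2, 28.4, 5.53, 11.9 and 15, and the non-responders 19.3, 31.6, 36.7 and 30.7. Computed per length on TPM, there as the inverse of the summed squared shares, 26R remained at 2.64 and its leading segment at 59.8%.

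**Figure D4:**
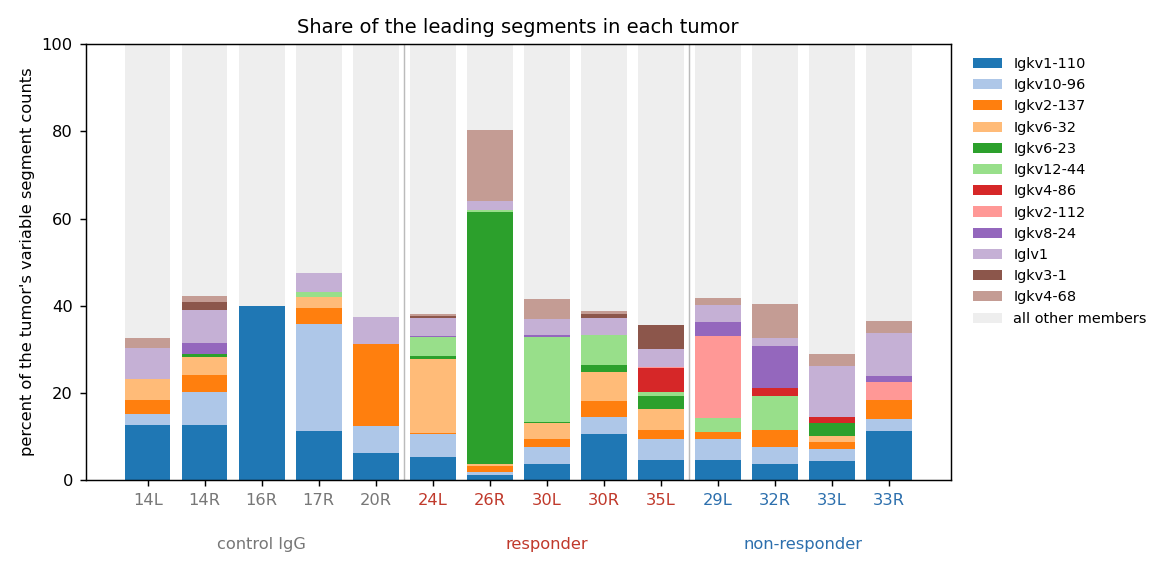
Bars give the percent of each tumor's variable segment counts taken by the leading segment of any tumor, by Igkv3-1 and by Igkv4-68, with all other members in grey. Igkv6-23 takes 57.8% of responder 26R, while no segment takes over 19.5% in another responder.

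Single tumors carried most of the counts of several segments. Of the 41 members with 30 or more counts, 17 had more than 50% of them in 1 tumor, and in all 17 that tumor was a responder. The highest CPM of each of the 41 was also in a responder. Responders held 84.5% of all variable segment counts, so a member reached 30 counts mainly through them. These numbers are therefore a description and not a result about the members. Igkv6-23, at chr6:70260409-70260955, had 804 of its 839 counts in 26R, 95.8%, and 9, 3, 7 and 13 in the responders 24L, 30L, 30R and 35L. The controls held 1 count of it, in 14R, and the non-responders 2, in 33L. Igkv4-68, at chr6:69304834-69305405, was the second segment of 26R with 226 counts. It had 48 in 30L, 5 in 24L, 3 in 30R and 0 in 35L, and 0 to 4 in each of the other tumors. Together with Igkv9-120, next in rank, these took 77.1% of the counts of 26R.

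Responder 30L was led by Igkv12-44 at chr6:69814631-69815154, with 200 counts. Its other values were 47 in 24L, 7 in 26R, 29 in 30R and 5 in 35L, at most 2 in a control and at most 4 in a non-responder. The second segment of 30L was the heavy chain segment Ighv3-6 at chr12:114288152-114288582, with 50 of its 73 counts there. Ighv3-6 had 6 counts in 24L, 0 in 26R, 9 in 30R and 7 in 35L, 1 count over all controls and 0 in every non-responder. The ratio of pooled CPM of Ighv3-6 to that of the non-responders was at least 18.2, taking 3 counts over the group as the limit that 0 allows.

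The tumors of mouse 30 shared their leading heavy segment, since Ighv3-6 also led the heavy chain counts of 30R. Igkv12-44 was second in 30R with 29 counts, behind Igkv1-110. Shared use of segments, the sum over segments of the smaller of both tumors' shares, was 56.9% for 30L and 30R. It was 16.5 to 59.4% for the other 9 pairs of responders, the highest being 30R and 35L of different mice. For 14L and 14R it was 55.2%, against 12.5 to 49.8% for the other 9 control pairs. Shared use was not set to equal depth. The control pairs with 16R or 20R, which held 15 and 16 variable segment counts, gave 12.5 to 26.8%. The pairs of 17R with 14L and with 14R gave 43.5 and 49.8%. For 33L and 33R it was 41.1%, against 28.3 to 40.4% for the other 5 non-responder pairs. With 1 pair from the same mouse in each group, no test of the mouse was made.

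Outside the responders, Igkv2-112 was the clearest case of a segment held by 1 tumor. It had 24 of its 28 counts in non-responder 29L, 3 in 33R and 1 in responder 35L, and 0 in the remaining 11 tumors. Its fitted change in responders against non-responders was -4.51 on the log2 scale (SE 1.47, adjusted p = 0.106, edgeR on genes with 3 or more counts), which did not pass the test. Igkv4-86 had 25 of its 29 counts in responder 35L and 2 in 24L.

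Heavy chain segments took a minor share of the variable segment counts in every tumor. This share need not be the balance of heavy to light transcripts, which was not tested. In responders heavy segments had 4.33 to 12.2 counts per 100 counts of switched heavy constant genes. Kappa segments had 45.1 to 86.1 per 100 Igkc counts there. The heavy chain percent of the variable segment counts was 19.6 in 24L, 6.9 in 26R, 17.3 in 30L, 17.1 in 30R and 12.6 in 35L. It was 17.1 in 14L, 13.4 in 14R, 13.3 in 16R, 14.7 in 17R and 18.8 in 20R among controls, and 15, 13.5, 14.5 and 9.86 in non-responders 29L, 32R, 33L and 33R. The means of 14.7 ± 5.04, 15.5 ± 2.42 and 13.2 ± 2.32% (SD) differed by less than the spread within the groups. The exact binomial interval of 26R was 5.63 to 8.36% and lay below those of the other responders, which began at 9.67%. Without Igkv6-23 the heavy share of 26R was 16.4%, and without their own leading segment the responders ranged from 13.3 to 23.6%.

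**Figure D5:**
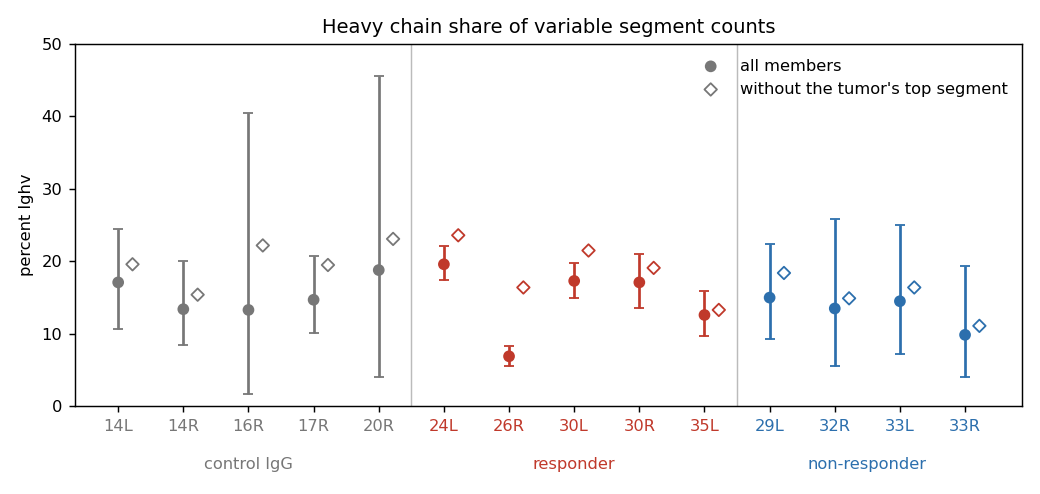
Filled points give the percent of variable segment counts on Ighv in each tumor with its 95% exact binomial interval (counting error only), and open diamonds the percent after the tumor's leading segment was left out. Responder 26R is lowest at 6.9% and moves to 16.4% without Igkv6-23.

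The leading heavy chain segment also differed among the tumors. The leading heavy segment held 12.6% of the heavy counts in 24L (Ighv8-12), 22.9% in 26R (Ighv2-9), 28.1% in 30L (Ighv3-6), 12.3% in 30R (Ighv3-6) and 19% in 35L (Ighv2-9). In 26R it had 22 counts, beside 804 for the leading kappa segment. The switched constant genes were the heavy constant genes other than Ighm and Ighd. Heavy counts per 100 of their counts were 4.33 in 26R and 5.59 to 12.2 in the other responders, 6.45 to 16.5 in controls and 5.26 to 9.46 in non-responders.

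Among the heavy segments, Ighv8-12 had 28 of its 40 counts in 24L, and Ighv1-66 had 21 of 37, Ighv2-5 18 of 33 and Ighv5-4 15.99 of 27.99 in the same tumor. Ighv14-3 with 40 counts, Ighv5-17 with 33 and Ighv2-2 with 26 were spread over more tumors, none holding over 30.8% of them. The pseudogene Ighv1-14 had 37 counts in 11 tumors, 11 of them in 30L, 9 in 26R and 5 in non-responder 29L. None of these passed the test against non-responders among genes with 3 or more counts, and Ighv5-4 was called higher in responders than in controls there (log2 fold change 5.38, SE 1.42, adjusted p = 0.0412, edgeR).

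By family, the number after the locus name, Igkv6 took 32.4% of all kappa counts, Igkv4 14.1% and Igkv1 12.1%. Without 26R and 24L the share of Igkv6 was 13.5% and that of Igkv1 15.9%. Summed over the tumors of a group, Igkv1 took 24.6% of kappa counts in controls, 10.5% in responders and 14.9% in non-responders. Among heavy chain segments, Ighv1 with 17 members took 30.6%, Ighv2 25.1% and Ighv5 12.2%.

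Kappa segments lie in either orientation relative to Igkc, and the joining then deletes or inverts the stretch between them. In the annotation 29 kappa members had the orientation of Igkc and 42 the opposite, and these took 31.5% and 68.5% of the kappa counts. The share of the opposite orientation was 43.3% over the controls, 50% over the non-responders and 72.4% over the responders. Each group share pooled the counts of its tumors. Without 26R, whose Igkv6-23 and Igkv4-68 both have the opposite orientation, its share over all tumors was 59.8%, beside 68.5% with 26R. The share over the responders without 26R was not computed.

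Other genes of the B cell lineage were described by lists. Of the 12 constant region genes 7 were tested, and 4 were called higher in responders than in non-responders, namely Igkc, Ighg1, Ighm and Ighd, with a median log2 fold change of 3.26 over the 7. Ighg1 rose by 4.24 (SE 0.79, adjusted p = 0.00962, edgeR), and Igkc by 3.26 (SE 0.64, adjusted p = 0.0114). Of 8 B cell markers tested, Pax5, Spib, Cd22 and Fcrla were called higher and Bank1 lower, with a median of 0.95. Pax5, a transcription factor of B cell identity, rose by 1.66 (adjusted p = 0.0106, edgeR). Of 10 plasma cell markers tested, Jchain, Irf4 and Pou2af1 were called higher, with a median of 0.22. The summed level of the plasma cell list, of which Txndc5 alone had a mean of 370 CPM in responders, was 576 to 651 CPM in responders and 563 to 686 in the other tumors.

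Among genes of rearrangement, Dntt, which adds bases at the joins, differed by 0.18 on the log2 scale between responders and non-responders (SE 0.51, adjusted p = 0.85, edgeR). Rag2 and Igll1 were at 0 in all tumors. Among follicle genes, Ltb, a cytokine of lymphoid tissue, rose by 1.01 (SE 0.23, adjusted p = 0.018, edgeR), and Cxcl13, a chemokine that attracts B cells, differed by 0.18 (SE 0.45, adjusted p = 0.836). Of 12 T cell markers, 9 were called higher, with a median of 1.17. None of the 8 skin epidermis markers was called, with a median of 0.35, and their summed level ranged from 6.84 to 724 CPM in controls, 123 to 287 in non-responders and 10.7 to 1042 in responders. Each median compares with 0.01 over all genes tested. In responders against controls, 5 of 7 constant region genes, 3 of 8 B cell, 4 of 10 plasma cell, 10 of 12 T cell and 0 of 8 skin epidermis genes were called higher, and in non-responders against controls none of these was.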

How the data were processed

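RNA of bulk tumors, with poly(A) selection per the labels, had been aligned to mm10 with STAR v2.5 and quantified with RSEM by the authors. The deposited files give expected counts, TPM and FPKM per gene for each tumor. The expected counts deposited by the authors were used for all tests and shares, the deposited TPM values for comparisons per length, and the deposited FPKM values were not used. Gene symbols, positions and V exon sequences came from GENCODE M21 (GRCm38). The members and gene lists were chosen with earlier results of these data known, and some genes of the lists are not reported here.

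After rounding of the expected counts to whole numbers, all genes were tested together over all 14 tumors in edgeR 4.0.16 (TMM, filterByExpr, quasi-likelihood test, Benjamini-Hochberg adjustment, threshold 0.05; R 4.3.3). DESeq2 1.42.0 and limma 3.58.1 (voom, also with the mouse as random effect) were alternatives. Of these tests, edgeR alone was checked on simulated counts. CPM were expected counts scaled to a library total of 1000000, and 3 counts were at most 0.0903 CPM. Numbers of segments at equal depth were hypergeometric expectations. Exact binomial intervals were computed in scipy 1.17.1. Segments named were the 10 with the largest sums in Ighv and in Igkv, all of Iglv, the leading segment of each tumor and members called by edgeR. Nothing in the labels states that the tumors share no culture or processing, so the p-values measure the spread between these tumors.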

Additional observations from a re-analysis of the deposited data

Results flagged for a closer look

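In groups of 4 or 5 tumors, a value was marked where the gap between the highest or lowest tumor and its nearest neighbour took up more of the group's range than Dixon's 95% limit. Of 59 groups examined 14 were marked. Chance marks about 1 in 20 groups of normally distributed values. The counts here were sparse, and some segments were examined because they led a tumor. The number of marks is therefore a description and not a test.

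Most marks were single segments in single responders. In 26R, Igkv6-23 stood at 24.2 CPM against 0.0792 to 0.292 in the other responders, and Igkv4-68 at 6.8 CPM against 0 to 1.27. The share of the leading segment was 57.8% in 26R against 5.41 to 19.5%. In 24L, Igkv6-32 stood at 4.56 CPM against 0.12 to 0.977, Igkv6-25 at 1.46 against 0 to 0.337 and Ighv8-12 at 0.669 against 0 to 0.0675. In 30L, Igkv12-44 stood at 5.28 CPM against 0.112 to 1.12 and Ighv3-6 at 1.32 against 0 to 0.191, and in 35L Igkv4-86 stood at 0.562 CPM against 0 to 0.0478.

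In control 17R, Igkv10-96 stood at 1.09 CPM against 0 to 0.227 and Igkv6-25 at 0.261 against 0 to 0.0619. In non-responder 29L, Igkv2-112 stood at 0.588 CPM against 0 to 0.0872. Control 14L had 16.5 heavy chain segment counts per 100 counts of switched constant genes against 6.45 to 8.09 in the other controls. The lambda share of control 16R was 0%, from a tumor with 15 variable segment counts, against 5.86 to 8.05%.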

How the results depend on the processing

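The level of all variable segments kept its direction under every alternative: the difference between responders and non-responders in mean log2 CPM was 3.32, from 3.11 to 3.70 under 6 other settings and from 3.05 to 3.60 with each tumor left out. The number of segments seen differed by 43.90 as counted but by -1.46 at 15 counts and by -2.97 at 50 counts, a depth chosen after the data were seen together with the variants without the leading segment and with at least 50 counts. The share of the leading segment differed by 9.17 percentage points (within-group SD 13.85), by 0.22 without 26R and by 13.32 without 35L. The effective number differed by -7.30 (SD 10.68), by -2.43 without 26R and by -11.79 without 35L. On TPM it differed by 1.78, but there it was the inverse of the summed squared shares. The TPM value thus changed the formula as well as the scale. The heavy chain share differed by 1.51 percentage points (SD 3.49), from 0.27 to 3.56 under the alternatives.

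Members called higher in responders than in non-responders were 4 of 6 tested, but 11 of 15 by DESeq2, 2 of 9 with 1 library per mouse, 8 of 118 among genes with 3 or more counts and 6 of 6 in the fit of those groups alone and by limma-voom with the mouse as a random effect, and 0 to 5 with each tumor left out. Of all genes, 1612 were called, 2559 by DESeq2, 2973 by limma-voom with the mouse as a random effect, 520 with 1 library per mouse, 689 in the fit of those groups alone, and 569 to 1978 with each tumor left out. Limma-voom without the mouse called 1491. The correlation within mice was estimated at -0.282, so the fit with the mouse was not a stricter allowance for shared mice. Against controls the members called were 4 of 6, but 18 of 29 by DESeq2, 22 of 118 among genes with 3 or more counts, 1 of 3 in the fit of those groups alone, 5 of 6 by limma-voom with the mouse as a random effect, 6 of 9 with 1 library per mouse and 0 to 7 with each tumor left out, beside 2147 of all genes and 1190 to 3385 with each tumor left out. Between non-responders and controls DESeq2 called 16 genes, and 0 to 5 were called with each tumor left out. The fit of the compared groups alone, the fit with 1 library per mouse and each fit with a tumor left out tested fewer samples. The cause of the other changes was not tested. At this depth a count of 0 in a tumor allows up to 3 counts.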
